A study of Mus musculus with 8 samples.

Results

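Kupffer cells are the macrophages that live in the sinusoids of the liver, where they take up particles, dying cells and bacteria from portal blood. They carry a typical set of lectins, scavenger receptors and complement receptors, they secrete complement component C1q, and their survival depends on signals through the receptor Csf1r. The 10 genes described here are markers of these cells and of macrophages in general: Clec4f, Vsig4, Cd5l, Cd68, Marco, Csf1r, C1qa, C1qb, C1qc and Cd163. They were taken by symbol from the 24539 gene entries of the RNA-seq data and the 25033 entries of the Ribo-seq data, and all 10 were present in both.

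Livers of C57BL/6 mice fed a high-fat diet, of which 45% of the calories were fat (HF group), were compared with livers of mice on the same diet that also received 2% (w/v) betaine dissolved in water (HB group). According to the labels the diet began at week 8 and the tissue was taken at postnatal week 25, although the labels also state 25 weeks of feeding. No transgene or deletion was involved, and all animals carried the same dietary load, so that the comparison is of betaine on top of the diet. The livers were assayed by RNA-seq, which measures polyadenylated mRNA, and by Ribo-seq, which measures ribosome-protected fragments (RPFs), with 2 libraries per group in each assay. They are named HF1, HF2, HB1 and HB2. The labels describe RNA preparations that were pooled before library construction, while the study's methods describe 2 mice per group chosen for sequencing. Since these differ, n counts libraries and the p-values measure only the spread between them. A control group on standard diet was not analysed here.

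All values are the RPKM deposited by the authors, the reads of a gene divided by its length in kb and by the size of the library, so that they can be compared between genes. The RNA-seq libraries held 11661207 (HF1), 11824128 (HF2), 22543471 (HB1) and 18082686 (HB2) reads on genes, the HB group being the deeper in both replicates. Ribo-seq was shallower, with 387980 (HF1), 1056546 (HF2), 257086 (HB1) and 141890 (HB2) reads, the HB group being the lower in both replicates. The identity of the tissue was clear from the hepatocyte markers, of which all 10 were tested and none passed the test described below, with albumin (Alb) mRNA between 21470 and 31910 RPKM. Defining genes of Kupffer cells were present in all 4 RNA-seq libraries: Clec4f lay between 48.9 and 72.6 RPKM, and Timd4, a receptor for dying cells on resident Kupffer cells, between 1.86 and 2.53 RPKM. In whole liver, more macrophages and more RNA per macrophage cannot be told apart.

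The mRNA of 4 of the 10 markers rose in the HB group: Cd5l, Marco, C1qb and C1qc, by 1.75-fold to 2.54-fold in mean RPKM. None fell. The other 6 did not pass the test, among them Clec4f, the most abundant marker in the HF group, whose values were lower in both HB libraries than in both HF libraries. The test was limma on log2(RPKM + 1) over 10687 genes, and a gene was taken to have changed at a Benjamini-Hochberg adjusted p under 0.05. By this rule 7.92% of all tested genes were higher and 19.1% were lower in the HB group. With the thresholds of the study (more than 1 on the log2 scale and p under 0.001 before adjustment), none of the markers was called in either direction, against 2.3% of all tested genes called higher and 6.56% called lower, and 5 markers had an unadjusted p under 0.05, as had 40.5% of all tested genes. With voom on recovered reads 0 were called by these thresholds too. The median log2 fold change of the 10 markers was 0.66, while that of all tested genes was -0.19. The calls depended on HF1: without this library 0 of the 10 markers passed the adjusted p, as against 12.2% of all genes tested in that fit, and the median of the markers was 0.38. They also depended on the filter. When genes with a mean below 1 RPKM were kept in the test, none of the 16758 genes passed the adjusted p (limma), which holds for every mRNA call of a marker or other gene given here.

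**Figure D1:**
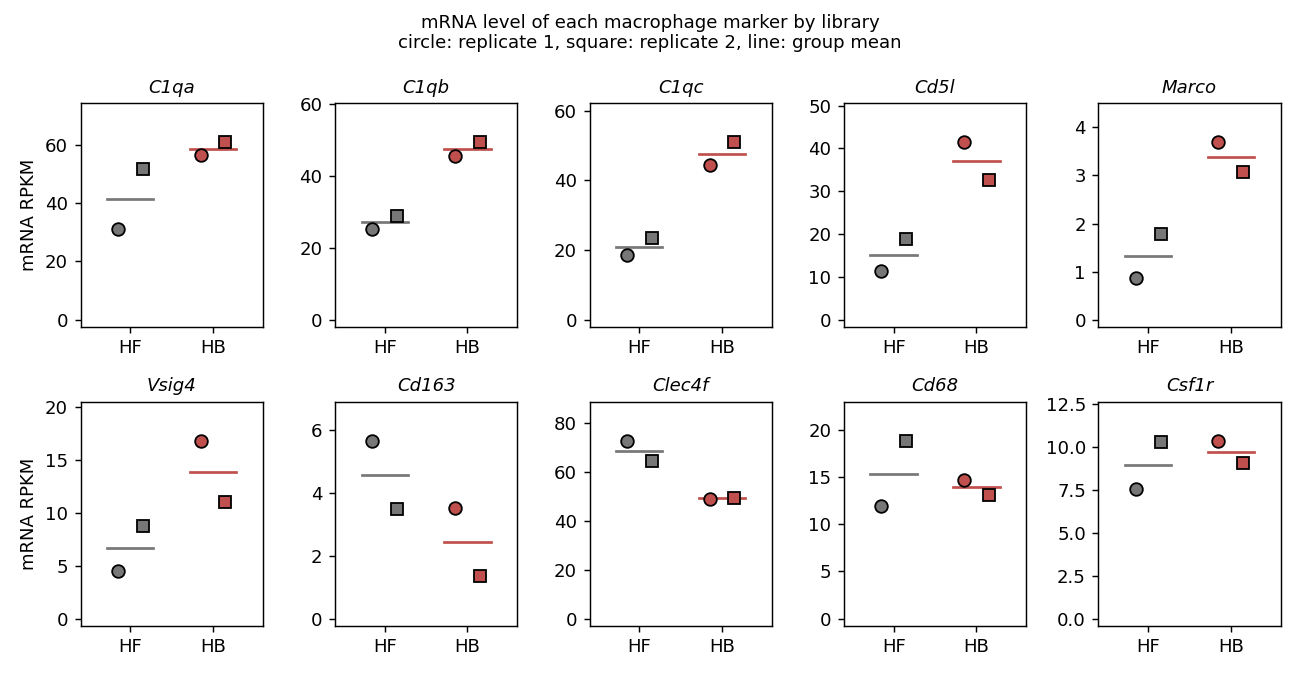
mRNA level of the 10 markers in RPKM (vertical axes, each from 0), with HF libraries in grey and HB libraries in red. Circles are replicate 1, squares replicate 2 and lines group means. Both HB libraries lie above both HF libraries for the 3 C1q chains, Cd5l, Marco and Vsig4, and below them for Clec4f.

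The 3 chains of C1q are the secreted products among the markers together with Cd5l. C1q is assembled from A, B and C chains, recognises antibody complexes and dying cells, and starts the classical complement pathway. C1qc (ENSMUSG00000036896.5, minus strand of chromosome 4, 136889804 to 136893065 on GRCm38) had mRNA levels of 18.5 and 23.5 RPKM in HF1 and HF2 and of 44.4 and 50.9 RPKM in HB1 and HB2. The groups were well apart, and C1qc rose by a log2 fold change of 1.15 (with a standard error (SE) of 0.26, adjusted p = 0.0124, limma). C1qb (ENSMUSG00000036905.8, minus strand of chromosome 4, 136880129 to 136886187) had 25.4 and 28.7 RPKM in the HF libraries and 45.4 and 49.3 RPKM in the HB libraries. It rose by a log2 fold change of 0.79 (SE 0.25, adjusted p = 0.0401, limma). C1qa (ENSMUSG00000036887.5, minus strand of chromosome 4, 136895917 to 136898803) had 31.1 and 51.7 RPKM against 56.5 and 60.8 RPKM. Both HB values were above both HF values, but HF1 and HF2 differed more than the HB libraries did, and the log2 fold change of 0.53 (SE 0.29, adjusted p = 0.198, limma) did not pass. For C1qa the log2 fold change was 0.18 without HF1 and 0.89 without HF2. Without HF1 the adjusted p was 0.128 for C1qc and 0.32 for C1qb (limma). Without HF2 it was 0.155 for C1qb, whose log2 fold changes in these fits were 0.70 and 0.88. C1qb was also above the threshold after rescaling to a common sum (adjusted p = 0.0503, limma) and with voom on recovered reads (0.0552).

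The genes of the C1q chains lie within 18.7 kb of each other on chromosome 4 and on the same strand. Their summed mRNA was 75.0 RPKM in HF1, 104.0 in HF2, 146.3 in HB1 and 161.0 in HB2. The C chain made up 24.6% and 22.6% of this sum in the HF libraries and 30.4% and 31.6% in the HB libraries. The A chain made up 41.6% and 49.8% in the HF libraries and 38.6% and 37.8% in the HB libraries. The B chain, with 33.8% and 27.6% against 31.1% and 30.6%, showed no separation. The A chain held the largest share in all 4 libraries. These shares are a description without a test.

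Cd5l (ENSMUSG00000015854.7, plus strand of chromosome 3, 87357881 to 87371073) encodes a secreted protein of the scavenger receptor cysteine-rich family, also known as AIM, which macrophages release into blood. Its mRNA was 11.3 and 18.8 RPKM in HF1 and HF2 and 41.4 and 32.6 RPKM in HB1 and HB2. Cd5l rose by a log2 fold change of 1.27 (SE 0.30, adjusted p = 0.0144, limma), based on 269 to 1901 reads per library. Without HF1 the log2 fold change was 0.93 and the adjusted p = 0.154 (limma).

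Of the receptors for particles and opsonised bacteria, Marco and Vsig4 had higher values in both HB libraries. Marco (ENSMUSG00000026390.7, minus strand of chromosome 1, 120474538 to 120505024) is a class A scavenger receptor that binds bacteria. It was the marker with the lowest mRNA level in the HF group, with 0.864 and 1.79 RPKM (20 and 42 reads), and had 3.69 and 3.06 RPKM (165 and 110 reads) in the HB group. The groups did not overlap, and Marco rose by a log2 fold change of 0.94 (SE 0.27, adjusted p = 0.0316, limma). Because of the constant of 1 added to RPKM, this value understates the 2.54-fold difference of the means. Marco did not pass without HF1 (log2 fold change of 0.65, adjusted p = 0.299, limma) or without HB1 (0.83, adjusted p = 0.0897).

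Vsig4 (ENSMUSG00000044206.3, minus strand of chromosome X, 96247203 to 96293438), also known as CRIg, is the complement receptor with which Kupffer cells capture bacteria coated with C3 fragments. Its mRNA was 4.49 and 8.80 RPKM in the HF libraries and 16.8 and 11.0 RPKM in the HB libraries, without overlap. The log2 fold change was 0.99 (SE 0.33, adjusted p = 0.0513, limma), just outside the threshold. It passed without HF2 (1.41, adjusted p = 0.0127), without HB2 (1.28, adjusted p = 0.0159), with a minimum mean of 5 RPKM (adjusted p = 0.046) and after a shift to a common median (1.27, adjusted p = 0.022). Without HF1 the log2 fold change was 0.58 (adjusted p = 0.435), and without HB1 it was 0.71 (adjusted p = 0.146), all by limma.

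Cd163 (ENSMUSG00000008845.9, plus strand of chromosome 6, 124304656 to 124330527) is the scavenger receptor for haemoglobin bound to haptoglobin. Its mRNA was 5.65 and 3.50 RPKM in the HF libraries and 3.53 and 1.35 RPKM in the HB libraries, so that HF2 and HB1 were at the same level. The log2 fold change of -0.75 (SE 0.34, adjusted p = 0.134, limma) did not pass with all libraries. It passed without HB1 (-1.22, adjusted p = 0.0211, limma). The value was -0.46 without HF1 and -0.27 without HB2 (adjusted p = 0.509, limma). Cd163 thus differed in sign from Marco, another scavenger receptor, although the value of Cd163 did not pass. In the HB libraries the levels of both receptors overlapped, while in the HF libraries Cd163 was above Marco.

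Clec4f (ENSMUSG00000014542.3, minus strand of chromosome 6, 83644542 to 83656187), a C-type lectin typical of mouse Kupffer cells, had mRNA levels of 72.6 and 64.4 RPKM in the HF libraries and of 48.9 and 49.6 RPKM in the HB libraries. These values rest on 1828 to 2647 reads. Both HB values were below both HF values, as in 43.3% of all tested genes. The log2 fold change was -0.47 (SE 0.25, adjusted p = 0.182, limma) and did not pass under any of the 13 alternative settings tried for it.

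Cd68 and Csf1r, which macrophages in many tissues express, overlapped between the groups. Cd68 (ENSMUSG00000018774.13, minus strand of chromosome 11, 69664213 to 69666153) encodes macrosialin, a glycoprotein of lysosomes and endosomes. Its mRNA was 11.9 and 18.8 RPKM in the HF libraries and 14.7 and 13.1 RPKM in the HB libraries. The log2 fold change was -0.10 (95% interval -0.73 to 0.52), and its sign turned after a shift to a common median (0.17) and without HF2 (0.21). Csf1r (ENSMUSG00000024621.16, plus strand of chromosome 18, 61100598 to 61132149) encodes the receptor tyrosine kinase for Csf1 and Il34. Its mRNA was 7.57 and 10.3 RPKM against 10.3 and 9.09 RPKM, a log2 fold change of 0.12 (95% interval -0.46 to 0.70), which was -0.08 without HF1. Csf1r is the only marker that overlaps other annotated genes, Mir6983 and, on the opposite strand, Hmgxb3. The libraries are not stated to be stranded, so reads of Hmgxb3 cannot be told apart there.

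Over all 10 markers, both HB values were above both HF values in 6 (24.8% of all tested genes), below them in 1 and overlapping in 3. The markers also differed between the HF libraries: HF2 was above HF1 in 8 of 10, while 48.0% of all tested genes were higher in HF2. The order of the mRNA levels changed between the groups. In the HF group Clec4f led, followed by C1qa, C1qb and C1qc, and the libraries of these 4 did not overlap with each other. C1qc overlapped with Cd68 and Cd5l, which came next and were not apart from each other. Nor were Csf1r and Vsig4, or Vsig4 and Cd163. Marco was lowest and apart. In the HB group C1qa led, and Clec4f, C1qc and C1qb followed with overlapping values. Cd5l came next, apart from its neighbours on both sides.

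Clec4f mRNA was 16.2, 7.32, 2.91 and 4.50 times that of Vsig4 in HF1, HF2, HB1 and HB2. It was 3.93 and 2.74 times that of C1qc in the HF libraries, against 1.10 and 0.974 times in the HB libraries. Clec4f held 38.4% and 28.0% of the summed mRNA RPKM of the 10 markers in the HF libraries and 17.1% and 17.7% in the HB libraries. The sum itself was 189.4, 230.5, 285.7 and 280.9 RPKM. Such ratios within a library do not depend on how the libraries are scaled, but they were chosen after the values were seen and are given without a test.

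**Figure D2:**
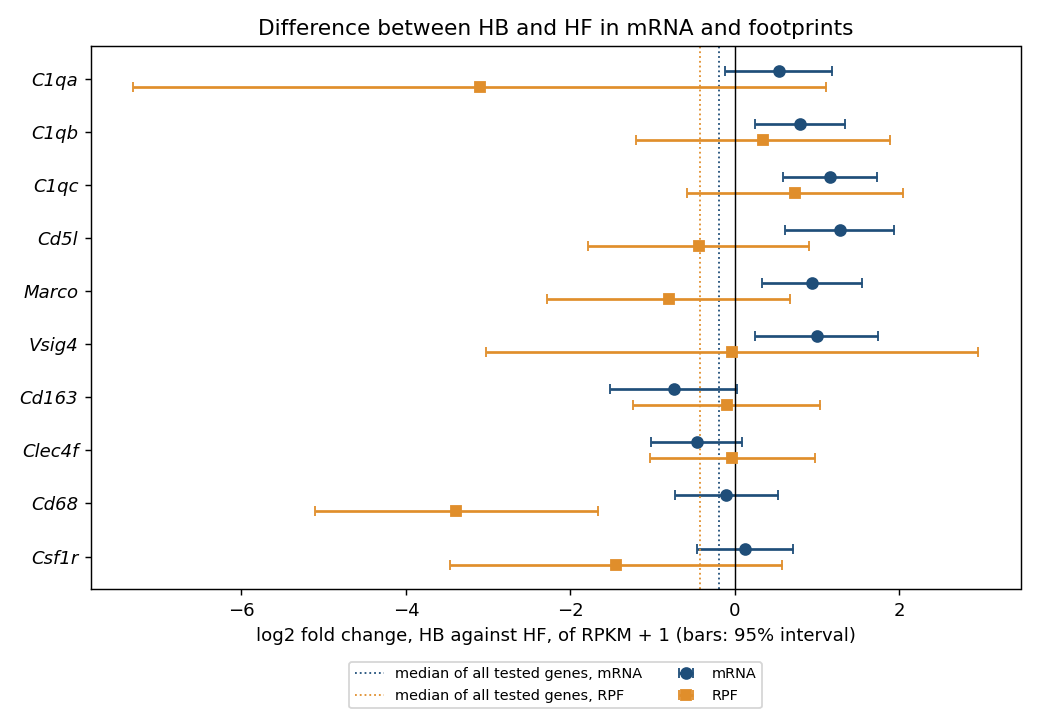
log2 fold change of RPKM + 1 between HB and HF (horizontal axis) of the 10 markers, in mRNA (blue circles) and RPFs (orange squares), with 95% intervals from limma. Dotted lines are the medians of all tested genes (-0.19 in mRNA, -0.43 in RPFs). In mRNA the intervals of Cd5l, C1qc, Vsig4, Marco and C1qb lie above 0, and in RPFs only that of Cd68, listed at 0 reads in the HB group, excludes 0.

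The markers differ in transcript length, and fold changes of all tested genes moved with length. The lengths that the RPKM imply ran from 813 bases for Cd68 to 4492 bases for Cd163 in mRNA. Over all tested genes, the median mRNA log2 fold change was 0.08 up to 1500 bases (2175 genes), -0.12 from 1500 to 3000 bases (3993 genes) and -0.34 above 3000 bases (4519 genes). The medians of the markers in these ranges were 0.79 (Vsig4, Cd68 and the 3 C1q chains), 0.94 (Clec4f, Cd5l and Marco) and -0.31 (Csf1r and Cd163). The part of length in the differences of the markers was not tested.

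The promoters of 3 of the 4 markers that rose are shown because they carry letters recognised by transcription factors of macrophages. That of C1qc is not shown, since its window overlaps the annotated gene, as does that of Clec4f. Pu.1, encoded by Spi1, binds sites with the core GAGGAA, and Maf binds sites with the half-site TGCTGA. RefSeq (GRCm38.p6) supplied the 250 bases before the start for 8 of the 10 markers, C1qa and Csf1r having no entry in the table used. GAGGAA, on either strand, was found in 6 of these 8 windows, with C1qc among the 6 and Clec4f not, and in 23.3% of 32851 promoter windows of the same length. TGCTGA, on either strand, was found in 3 of 8, Clec4f among them, and in 16.1%. Capitals mark either motif or its reverse complement (TTCCTC and TCAGCA), each sequence runs 5′ to 3′ on the strand of the gene, and the last base precedes the start.
C1qb, chr4:136886201-136886450, minus strand: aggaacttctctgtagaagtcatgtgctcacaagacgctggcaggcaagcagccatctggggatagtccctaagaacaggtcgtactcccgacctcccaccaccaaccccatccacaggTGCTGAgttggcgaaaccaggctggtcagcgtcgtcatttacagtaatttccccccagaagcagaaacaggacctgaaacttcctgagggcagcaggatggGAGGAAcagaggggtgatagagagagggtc
Cd5l, chr3:87357631-87357880, plus strand: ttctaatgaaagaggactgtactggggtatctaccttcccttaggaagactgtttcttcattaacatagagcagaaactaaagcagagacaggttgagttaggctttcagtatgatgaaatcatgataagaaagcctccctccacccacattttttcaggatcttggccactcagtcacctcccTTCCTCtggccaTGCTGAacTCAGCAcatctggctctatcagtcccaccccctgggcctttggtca
Marco, chr1:120505025-120505274, minus strand: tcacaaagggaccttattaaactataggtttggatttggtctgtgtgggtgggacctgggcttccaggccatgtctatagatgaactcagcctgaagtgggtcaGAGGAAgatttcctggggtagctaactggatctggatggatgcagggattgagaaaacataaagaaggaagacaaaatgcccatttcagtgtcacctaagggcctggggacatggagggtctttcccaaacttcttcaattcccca
In C1qb the Pu.1 core began 30 bases and the Maf half-site 131 bases before the start. In Cd5l the core began 66 bases before the start, and 2 half-sites on opposite strands began 54 and 46 bases before it. Marco held the core 146 bases before the start and no TGCTGA. Markers that did not rise also held the letters, with the core in Cd68 and Vsig4 and a half-site in Clec4f. A match of letters is a description and does not show binding.

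The genes for transcription factors of macrophages and for the ligands of Csf1r had negative fold changes in mRNA. Of 7 such genes 6 were tested, all 6 had a negative mRNA log2 fold change with a median of -0.86 (-0.19 over all tested genes), 3 fell (19.1% of all tested genes) and none rose (7.92%). The count of 3 became 0 without HF1, 1 without HF2, 1 without HB1 and 1 after a shift to a common median. It was 4 without HB2, with a common sum, without the variance trend and with voom. Maf fell from 9.14 and 8.64 RPKM in the HF libraries to 4.49 and 2.48 RPKM in the HB libraries (log2 fold change -1.18, standard error 0.28, adjusted p = 0.0167, limma). Irf8, a transcription factor of the monocyte and macrophage lineage, fell by 1.00 on the log2 scale (adjusted p = 0.0231, limma), and Csf1 fell from 4.00 and 4.90 to 2.25 and 2.09 RPKM (-0.78, adjusted p = 0.0413). The other ligand, Il34, had a log2 fold change of -0.05 (95% interval -0.63 to 0.54), which turned positive without HF1 (0.22), without HB2 (0.02) and after the shift (0.23). Maf did not pass without HF1 (adjusted p = 0.0567), and Irf8 did not pass without HF1, HF2 or HB1 (adjusted p of 0.0561 to 0.101) or after a shift to a common median (0.0739). Csf1 did not pass without any one of the 4 libraries (0.0551 to 0.241) or after this shift (0.146), all by limma. In RPFs 6 genes of this list were tested, 4 positive and 2 negative, with a median log2 fold change of 0.05 (-0.43 over all tested genes). That of Maf was 0.07 (95% interval -1.03 to 1.17). Other liver cells express several of these genes too.

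Of 14 other genes of Kupffer cell identity, all tested, 1 rose (7.92% of all tested genes), none fell (19.1%), and the median log2 fold change was -0.16, close to that of all tested genes. The gene that rose was Folr2, the folate receptor of resident macrophages, with 4.52 and 5.40 RPKM in the HF libraries and 12.6 and 14.6 RPKM in the HB libraries (log2 fold change 1.29, standard error 0.25, adjusted p = 0.00826, limma). Without HF1 its adjusted p was 0.0547. Among the 13 that did not pass were Timd4 (-0.14), Clec1b (-0.30) and Adgre1, which encodes F4/80 (0.33), given here after their values were seen.

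Of 18 general macrophage genes, all tested, 2 rose and 3 fell, with a median of 0.12. Of all tested genes 7.92% rose and 19.1% fell, so these counts were near the background. Lyz2, lysozyme, had 5.19 and 11.5 RPKM in the HF libraries and 38.3 and 35.6 RPKM in the HB libraries (log2 fold change 2.11, standard error 0.33, adjusted p = 0.00526, limma), and its reads can be shared with its paralog Lyz1. Mertk, the receptor kinase with which macrophages take up dying cells, fell from 9.49 and 13.4 RPKM to 3.96 and 3.95 RPKM (-1.31, standard error 0.26, adjusted p = 0.00926, limma). The remaining called genes, named after their values were seen, were Ctss, a lysosomal protease, with 1.18, and Ptprc (-1.01) and Coro1a (-0.90), which all leukocytes express. Without HF2 none of the 3 lower genes passed, with an adjusted p of 0.0594 for Mertk (limma), and without HF1 Ctss did not pass (0.202). Coro1a also did not pass without HB1 (0.0927) or after a shift to a common median (0.137).

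Of 15 genes of recruited monocytes and lipid-associated macrophages only 6 reached a mean of 1 RPKM. Fabp5, a fatty acid binding protein, rose from 4.15 and 3.29 RPKM to 18.7 and 11.0 RPKM (log2 fold change 1.71, standard error 0.30, adjusted p = 0.00640, limma). It was the only gene of the 6 that rose (7.92% of all tested genes), and none fell (19.1%). Trem2 had a log2 fold change of -0.0045, and Ccr2 and Itgam, which mark recruited monocytes, stayed below 1 RPKM in all libraries, all 3 named after their values were seen. Ly6c2, likewise named afterwards, had 0.321 and 0.950 RPKM in the HF libraries and 0.665 and 1.59 RPKM in the HB libraries. Plac8, also named afterwards, had a log2 fold change of 0.60 and did not pass (adjusted p = 0.179, limma). Of the 6 tested genes of this list, 3 had a positive and 3 a negative log2 fold change. Among 10 complement and haptoglobin genes that act with C1q, Vsig4 or Cd163, 9 were tested, 3 rose (7.92% of all tested genes) and 1 fell (19.1%). C1rb rose by 1.53 (adjusted p = 0.0197) and C4bp by 0.94 (adjusted p = 0.0307) on the log2 scale (limma), where reads of C1rb can be shared with its paralog C1ra. C1rb was 18.3 RPKM in HB1 and 6.97 RPKM in HB2, and its log2 fold change was 0.89 without HB1 and 2.17 without HB2. C4bp did not pass without HF1, HF2 or HB1 (0.0523 to 0.247). The count of 3 higher genes was 1 without HF1 and 1 without HF2. Serping1, the C1 inhibitor, also rose (0.80) and the C1 protease gene C1s1 fell (-0.85), both named after their values were seen. Neither passed without HF1 or without HF2, nor did C1s1 after a shift to a common median (adjusted p = 0.157, limma).

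**Figure D3:**
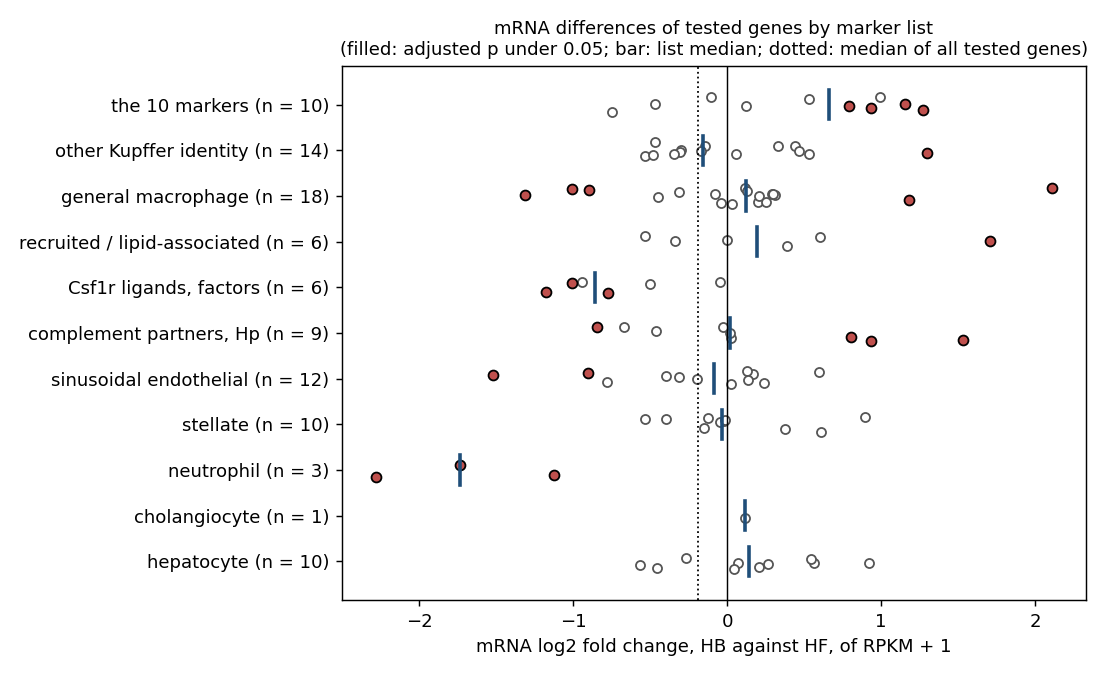
mRNA log2 fold change of RPKM + 1 between HB and HF (horizontal axis) of each tested gene in 11 lists of marker genes. Filled points passed an adjusted p of 0.05, blue bars are list medians (0.66 for the 10 markers), and the dotted line is the median of all tested genes (-0.19). The rightmost filled point is Lyz2 at 2.11.

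Markers of other liver cells were counted beside the macrophage markers. Of 12 sinusoidal endothelial genes, all tested, none rose and 2 fell (19.1% of all tested genes fell), Stab1 (-1.52, adjusted p = 0.0104) and Stab2 (-0.90, adjusted p = 0.0341), which are scavenger receptors of these cells. Stab2 did not pass without HF1, HF2 or HB1 (0.0825 to 0.155, limma) or after a shift to a common median (0.114). None of 10 tested stellate cell genes changed, and their most abundant gene Ecm1 had -0.53. Of 10 neutrophil genes 3 were tested and fell, among them Csf3r (-1.13, adjusted p = 0.0167) and S100a9 (-1.73, adjusted p = 0.0285). The summed level of this list was 11.4 RPKM in HF1, 61.7 in HF2, 4.54 in HB1 and 5.53 in HB2, with the mRNA of Ly6g, a defining marker, at 0 in all 4. Its RPF reads were 1, 5, 0 and 5. HF2 thus stood apart, and without it none of the 3 passed (limma, log2 fold change of -0.81 and adjusted p = 0.138 for S100a9). S100a9 also did not pass without HB1 (0.0635), after a shift to a common median (0.0529) or with voom (0.0509). None of the 14 lymphocyte genes reached a mean of 1 RPKM (summed level 3.75 to 4.14 RPKM in the HB and 5.97 to 9.24 RPKM in the HF libraries), and their most abundant gene was Nkg7. Of 7 cholangiocyte genes 1 was tested, Krt19, with 0.11. At an unadjusted p under 0.05, 1 stellate and 1 hepatocyte gene were higher. Under 4 of the 13 alternative settings 1 to 2 stellate genes rose, and under 8 of them 1 hepatocyte gene rose. Among these settings were the fit without HB2 for both lists and the fit without HB1 for hepatocytes. The part of these cells in the marker results was not tested.

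At the translational level, reads limited the comparison. The 10 markers together held 223 and 436 RPF reads in HF1 and HF2 and 131 and 40 RPF reads in HB1 and HB2. At most 3 reads were found for 2 markers in HB1 and for 7 markers in HB2, and for none in the HF libraries. Of the 11190 genes tested for RPFs, 0.0% passed an adjusted p of 0.05 and none of the markers did. The smallest adjusted p of any gene was 0.108 (limma), and 1122 genes had an unadjusted p under 0.05, 1 of them a marker. With the thresholds of the study for RPFs (more than 1 on the log2 scale and p under 0.05 before adjustment), Cd68 was called lower, as were 7.86% of all tested genes. The median RPF log2 fold change was -0.27 over the markers and -0.43 over all tested genes, and 0.06 and -0.10 after a shift to a common median. Both HB values were above both HF values in 1 marker (9.07% of all tested genes), below them in 5 (33.2% of all tested genes) and overlapping in 4. Without HB1, 5 markers were called lower (Vsig4, Csf1r, Cd68, Cd5l and C1qa), as were 22.5% of all genes in that fit, the HB group then being HB2 alone with its 40 reads. Without HB2, 2 were called, Cd68 lower and Vsig4 higher, and 18.4% of all genes in either direction. Voom on recovered reads called C1qa in place of Cd68, and none at the adjusted p.

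**Figure D4:**
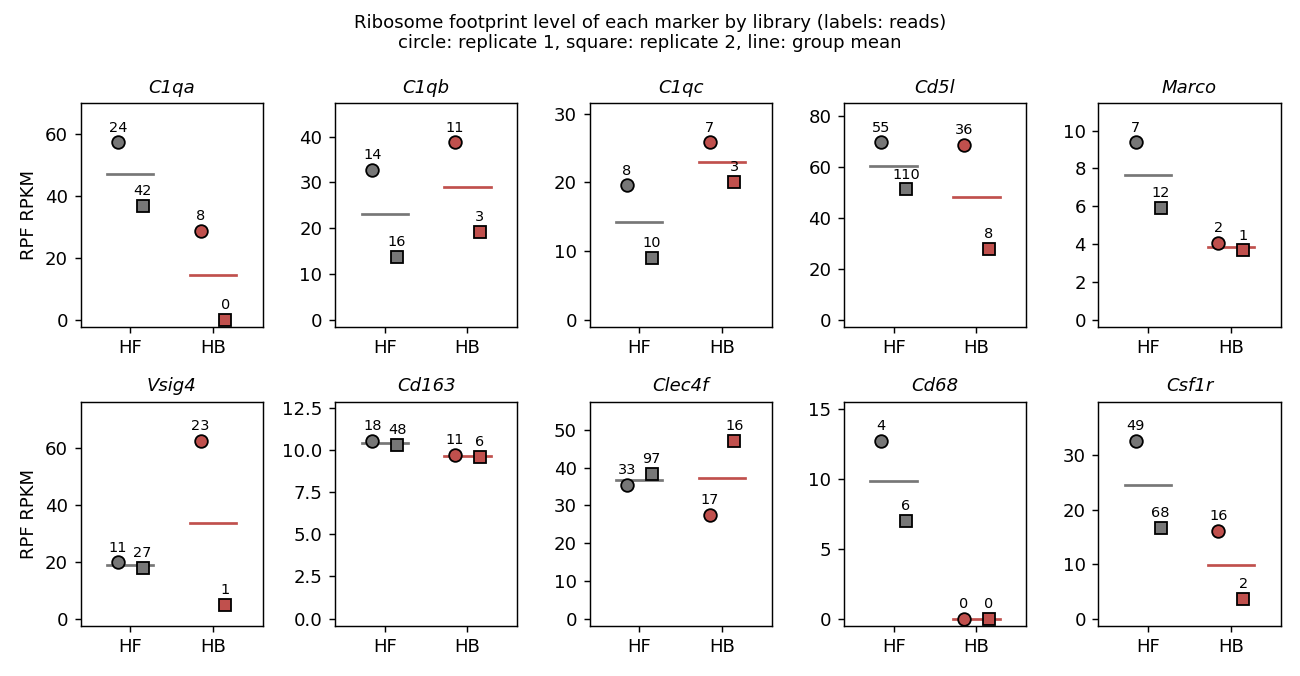
RPF level of the 10 markers in RPKM (vertical axes, each from 0), with HF libraries in grey and HB libraries in red. Circles are replicate 1, squares replicate 2, lines group means, and the number at each point is its whole reads. The HB libraries of Cd68 have 0 reads, and Marco has 2 and 1.

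Summed over the 4 libraries, Cd5l and Clec4f had the most RPF reads. Clec4f had 35.4, 38.3, 27.6 and 47.0 RPF RPKM in HF1, HF2, HB1 and HB2, from 33, 97, 17 and 16 reads. The HB libraries lay on both sides of the HF libraries, and the log2 fold change was -0.03 (95% interval -1.03 to 0.97). Cd5l had 69.6 and 51.1 RPF RPKM in the HF libraries and 68.7 and 27.7 RPF RPKM in the HB libraries, from 55, 110, 36 and 8 reads. HB1 was at the level of HF1 and HB2 was below, with a log2 fold change of -0.44 (95% interval -1.78 to 0.90). It was 0.20 without HB2.

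The chains of C1q were covered by 46 and 68 RPF reads together in the HF libraries and by 26 and 6 in the HB libraries. C1qa had 57.2 and 36.7 RPF RPKM in the HF libraries (24 and 42 reads) against 28.8 (8 reads) and 0 (0 reads) in the HB libraries. At the HF mean, 13.1 reads in HB1 and 7.21 in HB2 were to be counted. C1qa did not pass the test (log2 fold change -3.10, 95% interval -7.32 to 1.11). C1qb had 32.7, 13.7, 38.8 and 19.2 RPF RPKM, the groups overlapping, with 3 reads in HB2. C1qc had 19.6 and 8.98 RPF RPKM in the HF libraries against 25.8 and 20.1 in the HB libraries. Both HB values were above both HF values, on 7 and 3 reads, and its log2 fold change of 0.73 had a 95% interval of -0.58 to 2.05.

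The receptors had few footprints in the HB libraries. Csf1r had 32.6 and 16.6 RPF RPKM (49 and 68 reads) against 16.1 and 3.64 (16 and 2 reads), where 24.5 and 13.5 reads were to be counted at the HF mean. Its log2 fold change was -1.45 (95% interval -3.47 to 0.57), with no separation in mRNA. Vsig4 had 19.8, 17.8, 62.4 and 4.91 RPF RPKM from 11, 27, 23 and 1 reads, so that HB1 was the highest and HB2 the lowest of all. Its log2 fold change was -0.03 with both HB libraries, 1.68 without HB2 and -1.74 without HB1. Marco had 9.37 and 5.90 RPF RPKM (7 and 12 reads) against 4.04 and 3.66 (2 and 1 reads). Its log2 fold change of -0.80 had a 95% interval of -2.28 to 0.67 and did not pass the test. Cd163 had the steadiest values, with 10.5, 10.3, 9.70 and 9.59 RPF RPKM from 18, 48, 11 and 6 reads, and a log2 fold change of -0.10 (95% interval -1.24 to 1.04).

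Cd68 had 12.7 and 6.99 RPF RPKM in the HF libraries, from 4 and 6 reads, and was listed at 0 in both HB libraries. The limma fit gave -3.39 on the log2 scale (adjusted p = 0.493), a value that depends on the constant added to 0. At the HF mean of 9.83 RPKM, only 2.06 reads in HB1 and 1.13 in HB2 were to be counted. The RPKM of 3 reads, the limit that a count of 0 allows, was 14.3 in HB1 and 26.0 in HB2. Each lies above the HF mean, so that neither HB library alone could show a fall of Cd68 footprints. A limit over both HB libraries together was not computed for Cd68. No ratio of the group means is given for it. These limits cover counting error only.

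Translation efficiency (TE), the RPF RPKM divided by the mRNA RPKM of the library with the same group and number, was tested over 9455 genes. None of the markers passed an adjusted p of 0.05, as was the case for 0.0% of all genes, with 0.328 as the smallest adjusted p of any gene (limma). There were 1154 genes with an unadjusted p under 0.05, 3 of them markers (Cd5l, Marco and Cd68). With the thresholds of the study (more than 2 on the log2 scale and p under 0.05 before adjustment) Cd68 was called lower, with 0 reads in the HB group, and so were 4.6% of all tested genes. The median log2 change was -1.30 over the markers and -0.35 over all genes. Cd5l had a TE of 6.15, 2.72, 1.66 and 0.848 in HF1, HF2, HB1 and HB2, a log2 change of -1.71 (adjusted p = 0.378, limma). Marco had 10.9, 3.30, 1.10 and 1.20, a log2 change of -1.74 (adjusted p = 0.364, limma), on 2 and 1 RPF reads in HB1 and HB2. The HF libraries themselves differed by more than 2-fold in both genes. Without HB1, 5 markers passed the adjusted p (Csf1r, Vsig4, Cd5l, C1qa and Cd68), with 16.6% of all genes in that fit, and without HB2 1 did (Cd68), with 9.93% of all genes. Cd68 was not called without HF1 or without HF2.

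TE was lowest in HB2 for Vsig4, Cd5l, Csf1r, C1qa and C1qb. For Clec4f and Cd163 it was highest there. Clec4f had a TE of 0.488, 0.594, 0.563 and 0.948, a log2 change of 0.44 (95% interval -1.13 to 2.00). Cd163 had 1.86, 2.94, 2.75 and 7.08, a log2 change of 0.65 (95% interval -0.68 to 1.97). Which RNA-seq library shares its animals with which Ribo-seq library is not stated, so that the pairs by number may not be pairs of the same tissue. The difference between replicates 1 and 2 in mRNA was not correlated with that in RPFs across 9455 genes (-0.002 in the HF and -0.08 in the HB group).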

How the data were processed

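RNA-seq of polyadenylated mRNA and Ribo-seq were compared between 2 groups. Per the study's methods, FANSe2 aligned the reads to mm10. The values deposited by the authors are RPKM, in 1 file per library. Whether RPFs were counted over coding sequence or whole transcripts is not given in the sources used here. The submitters' processing notes name edgeR, which takes counts, and it was not used here. Low RPKM values lie on steps worth 1 read, which gave the library totals and whole reads. At least 99.95% of the values above 0 were within 0.02 of a whole read, and recovered reads summed to 101.3% to 105.8% of the totals. They served for depth, floors of 3 reads and voom.

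Genes with a mean of at least 1 RPKM were tested on log2(RPKM + 1) by limma (version 3.58.1, R 4.3.3; lmFit and eBayes with trend; two-sided; Benjamini-Hochberg over all tested genes). TE was tested on the log2 ratio of RPKM + 1. The steps were tested on simulated data. The members and lists were chosen with earlier results of these data known. The text names all 10 markers, up to 2 genes of each other list that passed with the lowest p (or its most abundant gene) and the ligands of Csf1r. Further genes were named after their values were seen, or as defining markers of a cell type (Timd4, Ly6g). GENCODE M21 on GRCm38, the assembly of mm10, supplied positions. Other settings tried were an added constant of 0.1, no filter, a stricter filter of 5 RPKM, a common sum, a common median, no trend, a replicate block, voom, an interaction model for TE and leaving out each library. A crossed block was chosen after seeing the data. Results for some genes of the lists are not reported here.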

Additional observations from a re-analysis of the deposited data

How the results depend on the processing

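The number of markers called in mRNA with the study's thresholds, 0, was 2 after a shift to a common median (7.78% of all genes called in that fit, against 8.86% in the fit reported), 2 with a replicate block (16.2%), 2 with a crossed replicate block (16.6%), 4 with the adjusted p in place of these thresholds, and 0 to 1 without single libraries. The 4 markers at an adjusted p under 0.05 became 0 without the filter, where 0 of all 16758 genes passed, and 0 to 5 without single libraries. The replicate block gave 5 and the crossed block 5, Vsig4 being added in both. The mRNA median of the markers was 0.38 to 0.88 without single libraries. The shift to a common median moved the median of all tested genes from -0.19 to 0.08.

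For RPFs, the 1 call (9.44% of all genes called) became 0 with a mean of at least 5 RPKM (6.7%), 3 with the replicate block (7.64%), 2 with the crossed block (8.04%), 0 at the adjusted p and 1 to 5 without single libraries. The RPF median was -1.09 after rescaling to a common sum, where that of all genes was -1.16, 0.06 after a shift to a common median and -0.97 to -0.15 without single libraries. For TE, the 1 call (6.09% of all genes called) became 2 with a pseudocount of 0.1 (8.02%), 0 with a mean of at least 5 RPKM (4.72%), 2 with the replicate block (6.4%), 2 with the crossed block (7.01%) and 0 to 5 without single libraries. At an adjusted p it was 0 to 5 without single libraries. The cause of these changes was not tested.

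The sign turned for mRNA in Cd68 (0.17 with a common median, -0.41 to 0.21 without single libraries), Csf1r (without single libraries, -0.082 to 0.32), Krt19 (without single libraries, -0.23 to 0.46) and Il34 (0.23 with a common median, -0.32 to 0.22 without single libraries). For RPFs it turned in Clec4f (0.29 with a common median, -0.41 to 0.34 without single libraries), Vsig4 (0.30 with a common median, 0.59 with voom, -1.74 to 1.68), Cd5l (-1.08 to 0.20), C1qb (-0.49 with a common sum, -0.25 to 0.94), C1qc (-0.094 with a common sum, 0.21 to 1.25) and Cd163 (0.23 with a common median). For TE it turned without single libraries in Vsig4 (-2.45 to 0.40), C1qb (-1.13 to 0.24) and C1qc (-1.11 to 0.27). In fits that leave 1 library in a group, that library is assumed to vary like the others.

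Samples with the same number did not deviate together (correlation across genes -0.10 in mRNA and -0.01 in RPFs), and with 2 pairs the numbers were not taken as pairs. Depth limits the RPF and TE values, above all in HB2.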
